A study of Caenorhabditis elegans with 6 samples.

Results

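The nuclear-encoded genes of the mitochondrial respiratory chain were followed in whole adult Caenorhabditis elegans kept on either of 2 bacterial diets. Genes were chosen by name alone: symbols starting with nuo-, sdh, ucr-, cox-, cyc-, atp-, asb- or asg-, together with gas-1, lpd-5, mev-1 and isp-1. This gave 46 genes of the 18811 in the files: 8 of complex I, 5 of complex II, 7 of complex III, 2 for cytochrome c, 7 subunits and 8 assembly factors of complex IV, and 9 of complex V. All 46 lie on nuclear chromosomes, 13 on I, 5 on II, 11 on III, 6 on IV, 5 on V and 6 on X. The worms were grown at 20 °C and transferred at larval stage 4 to plates with Escherichia coli BW25113, a standard laboratory strain, or with the mutant E. coli strain that the labels call purE, after a bacterial gene of purine synthesis. Each diet had 3 libraries of total RNA from whole synchronized adults, and both groups shared the temperature, the plates and the stage of transfer. The labels do not describe how the bacterial mutant was made, and neither the worm strain nor the adult age is stated in them. Nothing in them says that the replicates were separate cultures, so p-values measure only the spread between these samples, which may be technical.

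The respiratory chain passes electrons from NADH (complex I) or succinate (complex II) through ubiquinone to complex III, and by cytochrome c to complex IV, where oxygen is reduced. Complexes I, III and IV pump protons across the inner mitochondrial membrane, and complex V, the ATP synthase, uses the returning protons to make ATP. In C. elegans the chain is known from life span work: mutants of gas-1 and mev-1 are short-lived and sensitive to oxidative stress, whereas mutants of isp-1 and nuo-6 are long-lived.

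Total estimated counts per library ranged from 21880627 to 22607939, and TMM factors (edgeR's scaling of library size) from 0.844 to 1.204. The libraries of a diet were not alike. Across genes, purE replicate 1 had a correlation of log2 CPM of 0.978 with BW25113 replicate 3, against 0.860 and 0.952 with purE replicates 2 and 3. Markers of other cell types also differed between libraries. The 13 sperm markers in the files, of 30 listed, summed to 493 to 855 CPM on BW25113 and to 1069, 8659 and 4468 CPM in purE replicates 1, 2 and 3. The 20 oocyte and germline markers summed to 11724 to 13941 CPM on BW25113 and to 10361, 6648 and 11090 CPM on purE. The 14 body wall muscle markers summed to 13832 to 15306 CPM on BW25113 and to 15057, 24513 and 21723 CPM on purE. The 10 intestine markers summed to 43290 to 51081 CPM on BW25113 and to 38863, 24187 and 43282 CPM on purE. The 6 pharynx muscle markers summed to 111, 126 and 251 CPM on BW25113 and to 211, 317 and 242 CPM on purE. The 12 neuron markers summed to 303 to 334 CPM on BW25113 and to 312, 510 and 389 CPM on purE. In purE replicate 2 the sperm, muscle, pharynx and neuron sums were thus the highest of the 6 libraries and the germline and intestine sums the lowest. The intestine list was split, however, with 5 of the 10 markers higher and 5 lower on purE. Its mean centred log2 CPM was -0.0016 in purE replicate 2, above the -0.18 of BW25113 replicate 1. None of the markers above was at 0 in any library. Their part in the results below was not tested, and in whole-animal RNA fewer cells of a type cannot be told apart from less RNA per cell.

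Respiratory chain genes were among the abundant transcripts of the adult worm. Levels between genes were compared in the deposited FPKM (reads scaled to gene length and library size). The members had a median of 156 FPKM, against 6.27 FPKM over the 12144 genes tested. A mean above 100 FPKM was reached by 30 of the 46 members and by 8.004% of all genes tested. Together the members took 2.08%, 1.90% and 1.72% of the counts in BW25113 replicates 1, 2 and 3, and 2.13%, 2.29% and 2.105% in the purE replicates in the same order. The groups did not overlap in this share, though the gap between purE replicate 3 and BW25113 replicate 1 was small. After TMM scaling they did overlap, with sums of 20801, 19577 and 14765 CPM on BW25113 and 17665, 26443 and 24948 CPM on purE.

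The complexes differed in level by more than an order of magnitude. The median member stood at 1240 FPKM for the complex IV subunits, 559 FPKM for complex V, 186 FPKM for complex II, 151.9 FPKM for complex III and 102 FPKM for complex I. The assembly factors of complex IV had a median of only 30.5 FPKM. Their roles include haem synthesis, copper delivery and membrane insertion, and they are not part of the finished enzyme. The median subunit of complex IV was between 9.05 and 14.1 times that of complex I in each of the 6 libraries. The lowest of these ratios belonged to purE replicate 1 and the highest to BW25113 replicate 2, so the diets overlapped. Within complex IV the subunits lay close together, from 513 FPKM for cox-6A to 1937 FPKM for cox-7C, a ratio of 3.77. Within complex V the span was 19.4, from asg-2 at 112 FPKM to atp-1, the catalytic-head alpha subunit, at 2176 FPKM, the highest mean deposited FPKM of the 46 members. The beta subunit gene atp-2 stood at 1550 FPKM.

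The gene length behind these values affected some members. The length implied by counts and FPKM was more than 1.5 times the annotated exon length for 6 members, namely mev-1, ucr-11, isp-1, cox-16, atp-4 and asg-2, and from 0.641 to 1.33 times for the other 40. For ucr-11 it was 2091 bases against 281 annotated exon bases, and for atp-4 it was 2008 against 542. Their deposited FPKM values are therefore low per annotated base, and their counts may include reads of neighbouring transcripts, which was not tested. Per annotated exon length, atp-4 moved from rank 17 to rank 7 among the members and ucr-11 from 38 to 20. The first rank passed from atp-1 to cox-7C, at 2216 against 2060 for atp-1, which came to rank 3. Within complex V the lowest gene was now asb-1 at 111, with asg-2 at 350. The complex medians were then 1134 for IV, 640 for V, 288 for II, 188 for III, 102 for I and 26.6 for the assembly factors, in the same order as before. The length itself cancels in differences between the diets within a gene. Any reads of neighbouring transcripts in the counts of these 6 members would, however, enter their differences between the diets given below.

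**Figure D1:**
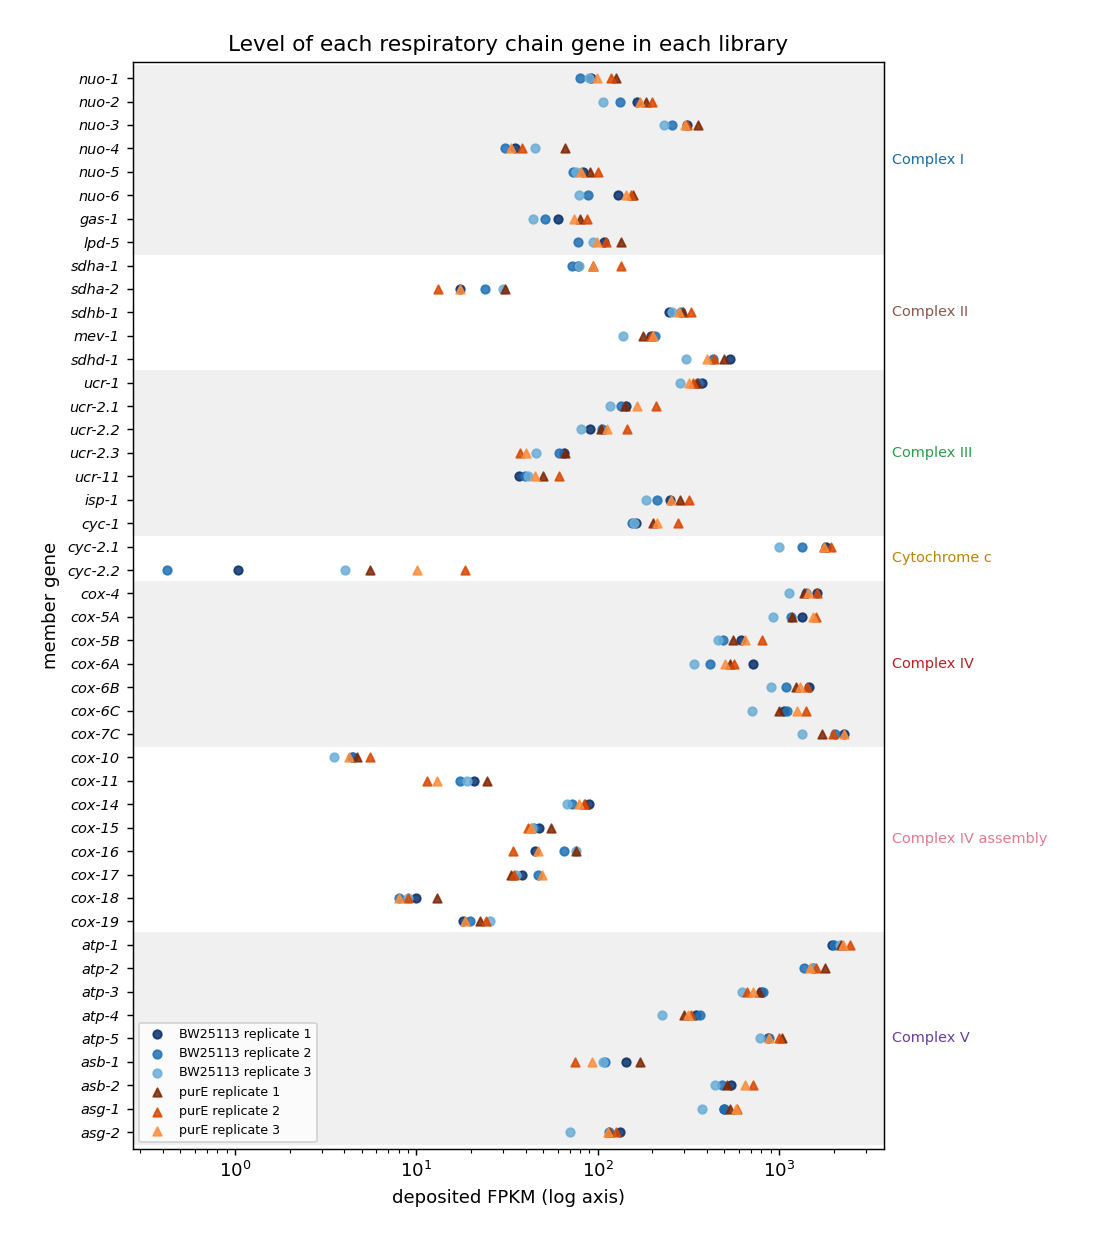
Deposited FPKM (log axis) of each of the 46 members, with 1 point per library and genes grouped by complex; circles are BW25113 and triangles are purE libraries. The alpha and beta subunits of complex V have means of 2176 and 1550 FPKM, the complex IV subunits have means from 513 to 1937 FPKM, the complex IV assembly factors have means below 100 FPKM, and cyc-2.2 spreads most between libraries.

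Close neighbours on the same strand were common but not general among the members. For 19 of the 46, or 41.3%, the nearest non-overlapping coding gene on the same strand lay within 200 bases, against 17.4% of the 19985 annotated protein-coding genes, a difference that was not tested. Close spacing on a strand is typical of C. elegans operons, in which several genes are transcribed as 1 precursor. The complex II gene mev-1 (chromosome III, 10334277 to 10335168, forward strand, WBcel235) lies 3 bases from ced-9, a regulator of cell death. The gene nuo-3 lies 94 bases from coq-3, which acts in ubiquinone synthesis, and cox-15, a haem A synthase, lies 99 bases from cchl-1. Of the complex IV assembly factors, 5 of 8 were so placed (cox-11, cox-15, cox-17, cox-18 and cox-19), and of the complex IV subunits 1 of 7, cox-7C.

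Between the diets, most members were somewhat higher on purE, but none passed the test. With edgeR's quasi-likelihood test and Benjamini-Hochberg adjustment over all genes, 0 of the 46 members were called at an adjusted p of 0.05, where the share over all 12144 genes was 0.0%. The log2 fold change of purE over BW25113 was above 0 for 41 of the 46, against 51.6% of all genes tested. The median over the members was 0.32 and over all genes tested 0.03. The sign count rests in part on BW25113 replicate 3: without it 29 of the 46 members were above 0 and the median was 0.14. Without purE replicate 2 the median was 0.20. At an unadjusted p under 0.05, 4 members were higher and 0 lower on purE (gas-1, nuo-6, cyc-1 and cyc-2.2), or 8.70%, below the share of 12.7% higher over all genes tested, where 3.81% were lower. DESeq2 called 1 member, cyc-2.2, as higher, where its share over all genes was 6.26%, and limma-voom called 0, with 5 members at an unadjusted p under 0.05, where the share over all genes was 12.8%. All 46 members passed the filter on low counts, although cyc-2.2, under 1 CPM in 2 of the BW25113 libraries, passed through the libraries where it was higher.

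**Figure D2:**
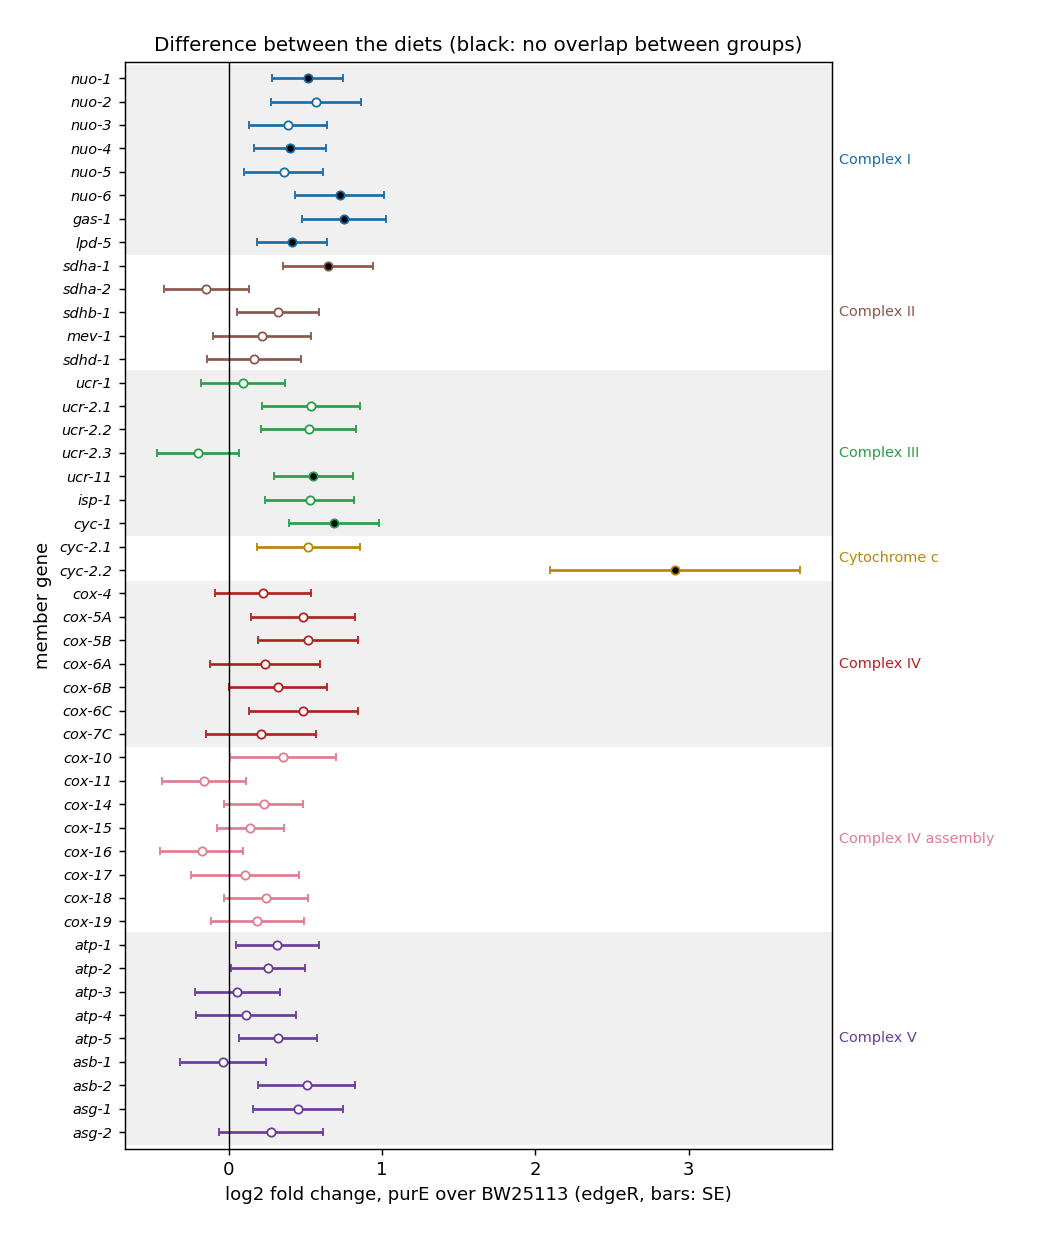
Log2 fold change of purE over BW25113 with its SE (edgeR) for each of the 46 members, grouped by complex; a black centre marks genes whose purE libraries all lie above all BW25113 libraries in TMM-scaled CPM. Of 46 points, 41 lie right of 0, and black centres are found in complexes I, II and III and for cyc-2.2.

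The libraries that set this pattern were the same for most members. In TMM-scaled CPM, BW25113 replicate 3 was the lowest of all 6 libraries for 36 of the 46 members, against 21.7% of all genes tested. The highest was purE replicate 2 for 29 members (36.02% of all genes) and purE replicate 3 for 7 (7.30%). The values of purE replicate 1 fell within the BW25113 range for 34 members, above it for 10 and below it for 2, against 57.1%, 24.7% and 18.2% of all genes. In purE replicate 2 the members above the BW25113 range numbered 34, and in purE replicate 3 there were 35, against 41.8% and 34.6% of all genes. Both of these libraries lay above purE replicate 1 for 39 of the 46 members, against 45.1% of all genes tested. The same 2 purE libraries held the most sperm and body wall muscle marker RNA. This order of libraries rests in part on the scaling. TMM factors were 1.166 for BW25113 replicate 3, 1.204 for purE replicate 1, and 0.869 and 0.844 for purE replicates 2 and 3. By share of counts, BW25113 replicate 3 stayed lowest (1.72%) and purE replicate 2 highest (2.29%). By that measure purE replicate 1 (2.13%) was slightly above purE replicate 3 (2.105%), and complex I was highest in purE replicate 1 (0.124%).

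**Figure D3:**
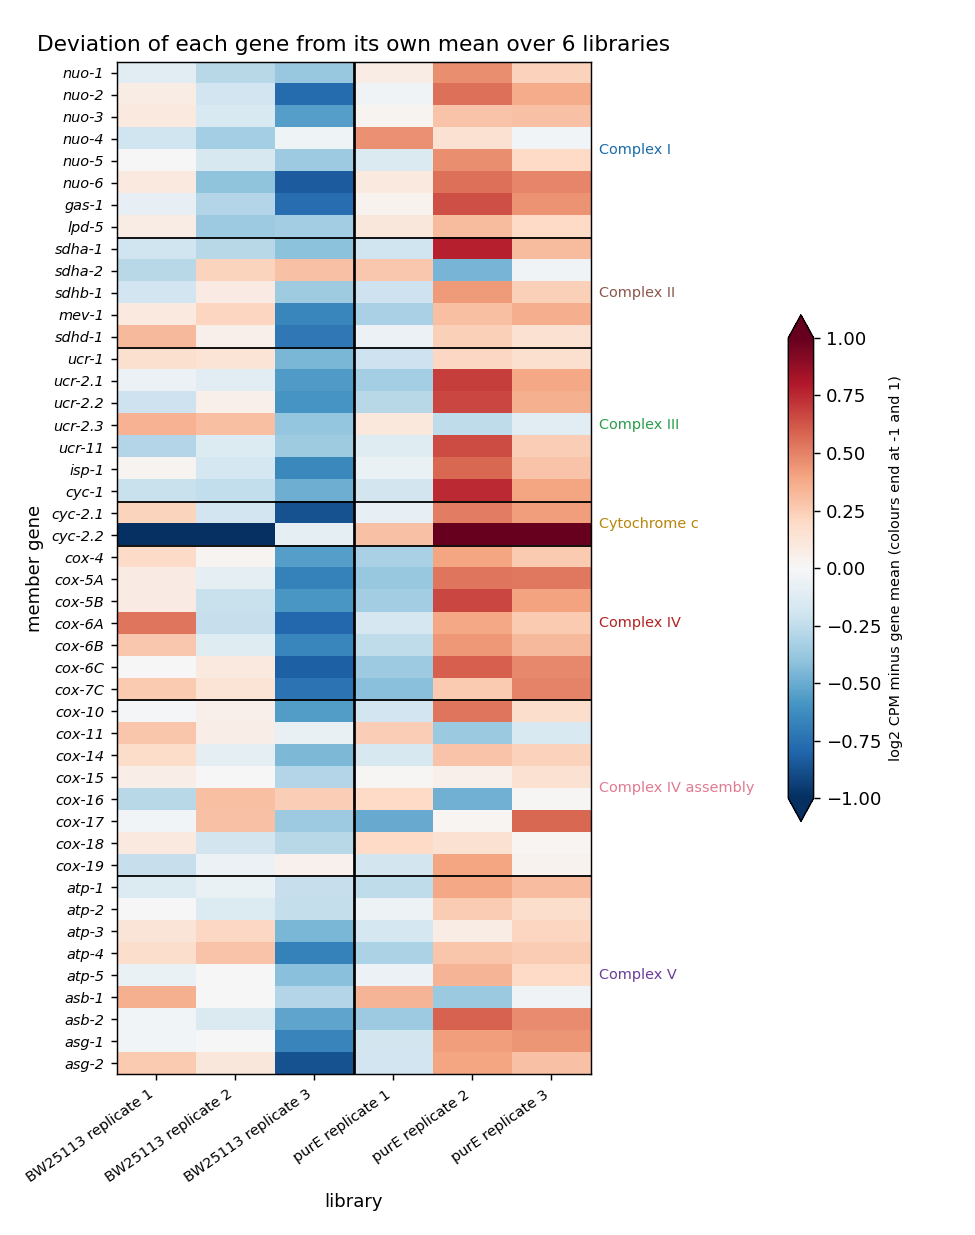
TMM-scaled log2 CPM of each member minus its own mean over the 6 libraries (columns), with genes in rows grouped by complex and colours ending at -1 and 1. BW25113 replicate 3 is blue and purE replicates 2 and 3 are red for most genes, whereas sdha-2, ucr-2.3, cox-11, cox-16 and asb-1 are blue in purE replicate 2.

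Of the 46 members, 9 had each purE library above each BW25113 library, or 19.6%, against 13.1% of all genes tested. The opposite order was found for 0 members and 6.68% of all genes. These 9 were nuo-1, nuo-4, nuo-6, gas-1 and lpd-5 of complex I, sdha-1, ucr-11, cyc-1 and cyc-2.2. Complex I thus held 5 of its 8 members without overlap, complex II held 1 of 5, complex III 2 of 7, and the complex IV subunits, the assembly factors and complex V held 0. With libraries scaled by size alone, 11 members were without overlap (11.8% of all genes). Complex I then held 4 of 8, since nuo-2 entered while nuo-4 and lpd-5 left, and isp-1, atp-1 and asg-1 entered from other complexes. The difference between complexes in this count was not tested.

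Complex I, the entry point for electrons of NADH, had a positive log2 fold change in all 8 members, with a median of 0.46 and a range from 0.36 to 0.75. The median was 0.55, 0.34 and 0.32 without BW25113 replicate 1, 2 or 3. The core subunit gene gas-1 (chromosome X, 15586786 to 15590397, reverse strand) stood at 99.5, 86.1 and 62.1 CPM in the BW25113 replicates and at 108, 165 and 144 CPM in the purE replicates. Every purE library lay above every BW25113 library, by a small margin in purE replicate 1. The means were 82.6 ± 18.9 and 139 ± 28.6 CPM (SD, n = 3), and the log2 fold change was 0.75 ± 0.28 (SE), with an edgeR adjusted p of 0.219. The accessory subunit gene nuo-6 (chromosome I, 7068116 to 7069186) stood at 82.1, 58.1 and 42.9 CPM on BW25113 and 82.2, 112 and 108 CPM on purE. Its groups were separate only by the distance between 82.1 and 82.2 CPM, and its log2 fold change was 0.72 ± 0.29, with an edgeR adjusted p of 0.261. The value was 0.97 without BW25113 replicate 1 and 0.43 without BW25113 replicate 3. The most abundant member, nuo-3, averaged 267 ± 40.8 FPKM on BW25113 and 324 ± 30.6 FPKM on purE (SD, n = 3). Its CPM values of 216, 182 and 138 on BW25113 overlapped those of 206, 247 and 248 on purE, and the log2 fold change was 0.39 ± 0.26.

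Among the other complex I members, nuo-4 differed from the rest in its order of libraries in TMM-scaled CPM. It stood at 55.5, 50.2 and 61.7 CPM on BW25113 and at 87.5, 70.6 and 62.5 CPM on purE, so that purE replicate 1 was the highest, and its log2 fold change was 0.40 ± 0.23. In deposited FPKM, however, purE replicate 1 was also the highest library for nuo-1 (126), nuo-3 (359), nuo-6 (156) and lpd-5 (134). The NADH-binding flavoprotein gene nuo-1 had a log2 fold change of 0.52 ± 0.23, the core subunit gene nuo-2 had 0.57 ± 0.29, the iron-sulphur subunit gene nuo-5 had 0.36 ± 0.26 and lpd-5 had 0.41 ± 0.23. A list of 20 further complex I subunits, which the reference names ndu- or nduf- and which the naming rule missed, had 20 positive values and a median of 0.44. Of these 20, 3 were without overlap, where the share over all genes was 13.1%, and 3 had an unadjusted p under 0.05 and were higher, where it was 12.7%. These counts are near the background, and 0 were called. The smallest p among them belonged to nduf-9, with 0.66 ± 0.22 and an edgeR adjusted p of 0.179.

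Complex II, the succinate dehydrogenase that also serves the tricarboxylic acid cycle, had 4 of 5 positive values and a median of 0.21, which was 0.13 without purE replicate 2 and turned to -0.10 without BW25113 replicate 3. Its flavoprotein is encoded by sdha-1 and sdha-2, and these differed in both level and pattern. The gene sdha-1 (chromosome X, 8542757 to 8546021) stood at 192, 183 and 166 CPM on BW25113 and at 193, 379 and 275 CPM on purE. Its groups met at 192 and 193 CPM, while purE replicate 2 stood far above the rest, and its log2 fold change was 0.65 ± 0.29 with an edgeR adjusted p of 0.323. The gene sdha-2 (chromosome I, 10683270 to 10685587) stood at 34.7, 49.2 and 51.5 CPM on BW25113 and at 50.8, 30.5 and 41.0 CPM on purE. The groups overlapped, purE replicate 2 was the lowest library, and the log2 fold change was -0.15 ± 0.28, or 0.03 without purE replicate 2.

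The membrane part of complex II showed little difference. The cytochrome b anchor gene mev-1 stood at 392, 425 and 234 CPM on BW25113 and at 293, 453 and 473 CPM on purE. The groups overlapped, and the log2 fold change was 0.21 ± 0.32, or -0.10 without BW25113 replicate 3. The other anchor gene, sdhd-1, averaged 424 ± 116 FPKM on BW25113 and 445 ± 46.2 FPKM on purE (SD, n = 3), the highest deposited FPKM in the complex. Per annotated exon length mev-1 was higher, at 508 against 405 for sdhd-1. In CPM sdhd-1 stood at 303, 250 and 147 on BW25113 and at 231, 285 and 269 on purE, so the groups overlapped. It had a log2 fold change of 0.17 ± 0.31, and -0.17 without BW25113 replicate 3. The iron-sulphur subunit gene sdhb-1 had 0.32 ± 0.27.

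Complex III, which hands electrons from ubiquinol to cytochrome c, had 6 of 7 positive values and a median of 0.53. The median was 0.28 without BW25113 replicate 3 and 0.30 without purE replicate 2. The cytochrome c1 gene cyc-1 (chromosome I, 8022674 to 8024422) stood at 229, 225 and 191 CPM on BW25113 and at 236, 448 and 353 CPM on purE. No purE library lay below a BW25113 library, but purE replicate 1 was only slightly above them. Its log2 fold change was 0.69 ± 0.29, with an edgeR adjusted p of 0.290. The Rieske iron-sulphur protein gene isp-1 (chromosome IV, 8134016 to 8136055) stood at 375, 325 and 235 CPM on BW25113 and at 352, 549 and 447 CPM on purE. In CPM the groups overlapped through purE replicate 1, but not with libraries scaled by size alone. The log2 fold change was 0.53 ± 0.29. The core protein gene ucr-1 had the highest deposited FPKM of the complex, at 340 ± 48.4 on BW25113 and 335 ± 16.9 on purE (SD, n = 3). Per annotated exon length isp-1 and ucr-11 were higher, at 378 and 340 against 327 for ucr-1. The log2 fold change of ucr-1 was 0.09 ± 0.28. In CPM it stood at 627, 614 and 407 on BW25113 and at 485, 645 and 626 on purE, with BW25113 replicate 3 the lowest. Its sign turned without that library, at -0.17, and with libraries scaled by size alone, at -0.02.

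The second core protein of complex III is encoded by 3 genes. Those on chromosome X and the one on chromosome III had log2 fold changes of opposite sign, but in each the diets overlapped. The X-linked ucr-2.1 (12018429 to 12021206) stood at 196, 190 and 138 CPM on BW25113 and at 161, 331 and 268 CPM on purE. The X-linked ucr-2.2 (15173904 to 15178145) stood at 127, 151 and 96.7 CPM and at 120, 232 and 186 CPM. Both were highest in purE replicates 2 and 3 and overlapped through purE replicate 1, with log2 fold changes of 0.54 ± 0.32 and 0.52 ± 0.31. The gene ucr-2.3 (chromosome III, 879860 to 881458) stood at 87.8, 85.2 and 52.9 CPM on BW25113 and at 74.3, 57.9 and 64.02 CPM on purE. Its groups overlapped, and the log2 fold change was -0.20 ± 0.27. Last in the complex, the small subunit gene ucr-11 had 0.55 ± 0.26.

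Cytochrome c, the soluble carrier between complexes III and IV, is encoded by a highly and a weakly expressed gene. The main gene cyc-2.1 (chromosome IV, 4747895 to 4749012) averaged 1385 ± 413 FPKM on BW25113 and 1828 ± 92.0 FPKM on purE (SD, n = 3). In CPM it stood at 1333, 1002 and 627 on BW25113 and at 1080, 1631 and 1531 on purE. The groups overlapped, and the log2 fold change was 0.52 ± 0.34.

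The gene cyc-2.2 (chromosome V, 12611682 to 12612218) had the largest fold change of the 46 members. Its counts were 10, 4 and 39 on BW25113 and 54, 174 and 96 on purE, or 0.448, 0.185 and 1.49 CPM against 1.98, 9.19 and 5.13 CPM. All purE libraries were above all BW25113 libraries, though BW25113 replicate 3 came close to purE replicate 1. The log2 fold change was 2.91 ± 0.81. The edgeR adjusted p was 0.133, whereas the DESeq2 adjusted p was 0.00507. Leaving out BW25113 replicate 3 gave cyc-2.2 a value of 3.98, and leaving out purE replicate 2 gave 2.296. With purE replicate 1 omitted it was 3.16 and passed the edgeR threshold, at an adjusted p of 0.0185. The 13 sperm markers had log2 fold changes from 2.71 to 3.28 with a median of 2.91. All 13 had each purE library above each BW25113 library, where the share over all genes tested was 13.1%. Their summed CPM, given above, was also highest in purE replicate 2, followed by purE replicates 3 and 1 and then BW25113 replicate 3. The part of sperm RNA in the value of cyc-2.2 was not tested. Even in purE replicate 2, the FPKM of cyc-2.1 was 105 times that of cyc-2.2, and in BW25113 replicate 2 it was 3171 times.

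Complex IV, the cytochrome c oxidase, had positive values for all 7 subunit genes, with a median of 0.32 and a range from 0.21 to 0.52. Omitting BW25113 replicate 1, 2 or 3 gave medians of 0.56, 0.21 and 0.02, omitting purE replicate 2 gave 0.19, and no subunit was without overlap. The subunit gene cox-5B (chromosome I, 9788725 to 9790050), that of smallest p, stood at 480, 388 and 304 CPM on BW25113 and at 357, 721 and 598 CPM on purE. The values of purE replicate 1 lay inside the BW25113 range, and the log2 fold change was 0.52 ± 0.33 with an edgeR adjusted p of 0.457. The most abundant subunit gene, cox-7C (chromosome I, 9773172 to 9774012), averaged 1885 ± 495 FPKM on BW25113 and 1988 ± 275 FPKM on purE (SD, n = 3). In CPM it stood at 1018, 935 and 508 on BW25113 and at 635, 1017 and 1196 on purE. The log2 fold change was 0.21 ± 0.36, and -0.14 without BW25113 replicate 3. The value of cox-6A was 0.24 ± 0.36 and ran from -0.11 without BW25113 replicate 3 to 0.63 without BW25113 replicate 1, its highest library at 347 CPM. The other subunit genes were cox-4 at 0.22 ± 0.31, cox-5A at 0.48 ± 0.34, cox-6B at 0.32 ± 0.32 and cox-6C at 0.48 ± 0.36. In each of these 4, BW25113 replicate 3 was the lowest library and purE replicate 2 the highest.

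The 8 assembly factors of complex IV had 6 positive values and a median of 0.16, which was 0.087 without BW25113 replicate 2 and turned to -0.03 without BW25113 replicate 3. They took 0.0240%, 0.0249% and 0.0259% of the counts on BW25113 and 0.0296%, 0.0205% and 0.0221% on purE. In the same libraries the subunits took 0.531%, 0.446% and 0.345%, and 0.445%, 0.554% and 0.522%. The assembly factors were thus highest in purE replicate 1 and lowest in purE replicate 2, where the subunits were highest. After TMM scaling, however, the assembly factors summed to 240, 257 and 223 CPM on BW25113 and to 246, 237 and 262 CPM on purE, so that BW25113 replicate 3 was the lowest and purE replicate 3 the highest. The haem O synthase gene cox-10, the lowest member at 4.48 FPKM, stood at 6.71, 7.01 and 4.58 CPM on BW25113 and at 5.92, 9.82 and 7.65 CPM on purE, with a log2 fold change of 0.35 ± 0.34. The factor of highest deposited FPKM, cox-14, stood at 62.6, 51.8 and 40.4 CPM and at 49.2, 67.2 and 64.7 CPM, with 0.23 ± 0.26. Both overlapped between the groups. Per annotated exon length cox-16 was higher, at 132 against 80.6 for cox-14. The copper delivery gene cox-11 and the assembly gene cox-16 (a role known from yeast and human) had -0.16 ± 0.27 and -0.18 ± 0.27, and both were lowest in purE replicate 2, at 11.9 and 54.4 CPM. The remaining factors were cox-15 at 0.14 ± 0.22, the copper chaperone gene cox-17 at 0.10 ± 0.35, the membrane insertion gene cox-18 at 0.24 ± 0.27 and cox-19 at 0.18 ± 0.30. The value of cox-17 turned to -0.04 with libraries scaled by size alone.

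Complex V, the ATP synthase, had 8 of 9 positive values, a median of 0.27 and no member without overlap in TMM-scaled CPM. With libraries scaled by size alone, atp-1 and asg-1 were without overlap. The median was 0.11 without BW25113 replicate 3. The alpha subunit gene atp-1 (chromosome I, 12652277 to 12654655) stood at 3794, 3983 and 3569 CPM on BW25113 and at 3499, 5457 and 5162 CPM on purE. In CPM its lowest library was purE replicate 1 and the log2 fold change was 0.32 ± 0.27, close to 0.25 ± 0.24 for the beta subunit gene atp-2. In deposited FPKM atp-1 stood at 1969, 2011 and 2163 on BW25113 and at 2189, 2457 and 2265 on purE, without overlap. The stalk subunit genes atp-3, atp-4 and atp-5 had 0.06 ± 0.28, 0.11 ± 0.33 and 0.32 ± 0.25. The first of these turned to -0.05 with libraries scaled by size alone and to -0.21 without BW25113 replicate 3, and atp-4 turned to -0.0053 and -0.22 under the same changes.

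Subunit b of complex V is encoded by asb-2 and by asb-1, which is known to be expressed in the germ line. The gene asb-2 (chromosome X, 4469766 to 4471476) stood at 614, 566 and 432 CPM on BW25113 and at 485, 942 and 866 CPM on purE. The gene asb-1 (chromosome III, 4594543 to 4595821) stood at 140, 110 and 89.4 CPM and at 139, 84.6 and 107 CPM. In purE replicate 2, asb-2 was at its highest and asb-1 at its lowest. Their log2 fold changes were 0.51 ± 0.32, with an edgeR adjusted p of 0.452, and -0.04 ± 0.28. For subunit g, asg-1 stood at 213, 218 and 137 CPM on BW25113 and at 191, 291 and 294 CPM on purE. Its paralogue asg-2 stood at 205, 184 and 93.4 CPM and at 149, 225 and 209 CPM. Both genes were lowest in BW25113 replicate 3, with log2 fold changes of 0.45 ± 0.29 and 0.27 ± 0.34, the latter -0.09 without that library.

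Ratios of paralogues within a library do not depend on how libraries are scaled. The FPKM ratio of asb-2 over asb-1 was 3.77, 4.44 and 4.17 on BW25113 and 3.02, 9.61 and 6.97 on purE. That of sdha-1 over sdha-2 was 4.4997, 3.01 and 2.62 on BW25113 and 3.08, 10.1 and 5.44 on purE. The ratio of ucr-2.1 over ucr-2.3 was 2.204, 2.201 and 2.58 on BW25113 and 2.14, 5.63 and 4.14 on purE. In each case purE replicates 2 and 3 exceeded every BW25113 library, while purE replicate 1 lay within or below the BW25113 range, so the groups overlapped. The same order appeared for gas-1 over its paralogue nduf-2.2, a pair chosen after its values were seen, at 3.07, 2.64 and 1.99 on BW25113 and 2.51, 6.03 and 4.90 on purE. By contrast, ucr-2.1 over ucr-2.2 stayed between 1.27 and 1.57, and asg-1 over asg-2 between 3.77 and 5.33, in all 6 libraries. The size of the asg ratio rests largely on the long implied length of asg-2. Per annotated exon length asg-1 stood at 460 and asg-2 at 350. None of the ratios differed in an exact two-sided permutation test over the samples, with p from 0.20 to 0.90, where 3 against 3 cannot go below 0.10. The oocyte and germline markers were lowest in purE replicate 2, at 6648 CPM, but in purE replicate 3 they were at 11090 CPM, above purE replicate 1 at 10361 CPM. Their part in these ratios was not tested.

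**Figure D4:**
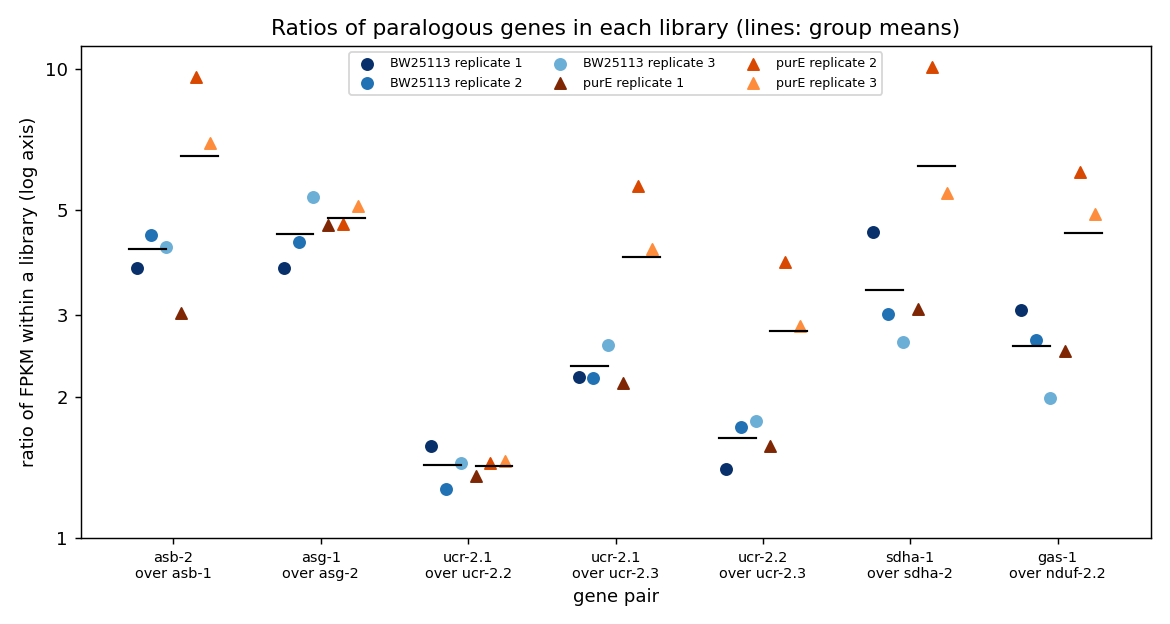
Ratio of the deposited FPKM of paralogous genes within each library (log axis), with circles for BW25113, triangles for purE and lines for the group means. For asb-2 over asb-1, sdha-1 over sdha-2, both ratios to ucr-2.3, and gas-1 over nduf-2.2, purE replicates 2 and 3 lie above all other libraries, whereas ucr-2.1 over ucr-2.2 and asg-1 over asg-2 show no such gap.

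In the gapped pairs of asb, sdha, ucr-2 and gas-1 the numerator gene was on chromosome X and its partner on an autosome. The pair asg-1 and asg-2, on chromosomes I and X, where asg-2 has the long implied length given above, showed no gap. The pair cyc-2.1 and cyc-2.2, on chromosomes IV and V, showed one in the other direction, with FPKM ratios of 1752, 3171 and 249 on BW25113 and 321, 105 and 176 on purE. The 6 X-linked members (gas-1, sdha-1, ucr-2.1, ucr-2.2, asb-2 and asg-2) all had positive values, with a median of 0.53, against 35 of 40 and a median of 0.32 for the autosomal ones. Over all genes tested, the median was 0.24 for the 1730 genes on chromosome X and -0.0025 for the 10412 on autosomes. The mean centred log2 CPM of the X-linked members was -0.05, -0.11 and -0.62 on BW25113 and -0.22, 0.63 and 0.38 on purE. In C. elegans the X chromosome is largely silenced in the germ line. The difference between X-linked and autosomal members was not tested, nor was the part of chromosome X in these ratios.

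Genes that work beside the chain gave mixed values. The 19 genes of the tricarboxylic acid cycle and pyruvate dehydrogenase had 18 positive values, a median of 0.25 and 0 calls, and the citrate synthase gene cts-1, that of smallest p, had 0.53 ± 0.30. Of 18 tested glycolysis genes 13 were positive, with a median of 0.17, and ipgm-1 had 0.62 ± 0.22. An unadjusted p under 0.05 was found for 3 of the 18, near the 16.5% of all genes. The 7 genes of ubiquinone synthesis had a median of 0.11, with 0.67 ± 0.34 for coq-1. The 70 mitochondrial ribosomal protein genes had 41 positive values and a median of 0.05, and mrps-12, that of smallest p, had 0.50 ± 0.29. The 79 cytosolic ribosomal protein genes had 59 positive values and a median of 0.11, and rpl-42, that of smallest p, had 3.42 ± 0.85. Of 9 tested genes of the mitochondrial stress response 5 were positive, with a median of 0.11, and the chaperone gene hsp-6 had 0.28 ± 0.24. Each of these lists had 0 genes called by edgeR, where the share over all genes tested was 0.0%. DESeq2 called 1 of the 79 cytosolic ribosomal protein genes, as higher, where its share over all genes was 6.26%. In the other lists it called 0.

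The ADP/ATP carriers exchange the product of complex V across the inner membrane. The 3 such genes in the files summed to 3771 to 5961 CPM on BW25113 and to 4151 to 7423 CPM on purE, and their log2 fold changes were unlike. The gene ant-1.1 had 0.23 ± 0.32, whereas ant-1.3 had 3.43 ± 0.85 and ant-1.4 had 3.67 ± 1.03, with edgeR adjusted p-values of 0.129 and 0.133 for the last 2. DESeq2 called 2 of the 3 as higher, ant-1.3 and ant-1.4, where its share over all genes was 6.26%. The median level of the 3 genes was 1.02, 0.63 and 1.44 FPKM on BW25113 and 2.18, 20.7 and 6.01 FPKM on purE. Their mean centred log2 CPM was -0.73, -1.13 and -0.89 on BW25113 and -0.71, 2.34 and 1.11 on purE, high in the same 2 libraries as the sperm markers and cyc-2.2.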

How the data were processed

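Whole-worm RNA-seq of 6 libraries was analysed, grouped and numbered by their titles. Estimated counts were deposited per gene by the authors, per the file headers, and 91.0% to 92.2% of values were whole. The authors also deposited FPKM values, per the file headers. The submitters' processing notes name the build WBcel235. No source used here names the aligner, the counter or the strand setting, so how reads of overlapping genes and close paralogues were assigned is unknown. Positions came from an annotation of that build, matched by symbol for all 46 members.

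Counts were rounded, filtered with edgeR's default (12144 genes kept), scaled by TMM and tested, purE over BW25113, by the quasi-likelihood test of edgeR (version 4.0.16, R 4.3.3). The test was two-sided, p-values were adjusted over all genes by Benjamini and Hochberg's method, and the threshold was 0.05. CPM values are TMM-scaled, and centred log2 CPM used a prior count of 2. A count of 3, the most that a count of 0 allows, was 0.110 to 0.160 CPM, for counting error only. Libraries of a diet differed beyond counting error (chi-square over degrees of freedom from 42.5 to 350). Alternatives were other filters and scalings, DESeq2 1.42.0, limma 3.58.1 (voom, and log2(FPKM + 1) of genes with at least 1 FPKM in 3 libraries), a replicate block, omission of the 100 most abundant genes and omission of each library in turn. Procedures were tested on simulated data with planted changes larger than those of most members, so this does not show that small differences would be found. Values in full were given for members of smallest p or highest FPKM per complex, for paralogue sets and for gas-1, mev-1, isp-1 and nuo-6. The members and lists were chosen with earlier results of these data known.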

Additional observations from a re-analysis of the deposited data

How the results depend on the processing

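The number of genes called by edgeR over all genes was 0 in the main analysis, with 2004 at an unadjusted p under 0.05. It was 946 with DESeq2, 2 with the replicate number as a block and 0 to 1852 when each library was left out, 1852 without purE replicate 1. Members called numbered 1 with DESeq2 and 0 to 1 without single libraries, the call being cyc-2.2 without purE replicate 1. Members at an unadjusted p under 0.05, all higher on purE, numbered 4, but 2 with library size alone, 2 with DESeq2, 1 with the replicate block and 1 to 7 without single libraries. Over all genes, in either direction, the main share was 16.5%, with 13.6% by library size, 16.5% with DESeq2 and 12.9% with the block. Without single libraries it was 9.88% to 33.4%. The 7 came without purE replicate 1, where 33.4% of all genes had such a p. Same-numbered libraries did not deviate together (correlations across genes of -0.14, -0.17 and 0.14), so the block does not pair samples. Members without overlap, 9 in the main analysis, numbered 11 by library size or FPKM and 9 to 31 without single libraries, 18 without BW25113 replicate 1 and 31 without purE replicate 1 (19.4% and 30.4% of all genes); this count was chosen after seeing the data.

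The median over the members ranged from 0.14 to 0.41 without single libraries and was 0.20 by library size alone and 0.20 on log2(FPKM + 1), where the median of all genes moved from 0.03 to -0.07 and -0.11. The median of the complex IV assembly factors was 0.043 by library size alone, 0.037 on log2(FPKM + 1) and -0.029 to 0.14 without single libraries, and that of complex II was -0.10 to 0.28. The log2 fold change of atp-3 turned to -0.0020 with DESeq2 size factors and with DESeq2, to -0.052 by library size, -0.025 without the 100 most abundant genes and -0.045 on log2(FPKM + 1). That of ucr-1 turned to -0.020 and -0.012, and that of cox-17 to -0.042 and -0.056, by library size and on log2(FPKM + 1), and atp-4 to -0.0053 by library size. Without single libraries the sign turned for asb-1 (-0.37 to 0.12), asg-2 (-0.092 to 0.46), atp-3 (-0.21 to 0.11), atp-4 (-0.22 to 0.19), cox-14 (-0.012 to 0.36), cox-15 (-0.046 to 0.19), cox-17 (-0.21 to 0.20), cox-4 (-0.057 to 0.35), cox-6A (-0.11 to 0.63), cox-7C (-0.14 to 0.37), mev-1 (-0.10 to 0.28), sdha-2 (-0.47 to 0.029), sdhd-1 (-0.17 to 0.37) and ucr-1 (-0.17 to 0.17). The causes were not tested. With a biological coefficient of variation of 0.407 and 3 libraries a diet, differences as small as most of these could not be told from the spread between libraries.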
